A study of Homo sapiens with 3 samples.

Results

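NEAT1 and MALAT1 are neighbouring genes on chromosome 11 (hg19) that encode long RNAs kept in the nucleus. All peaks of both TFIIH helicase lists that touch a 105 kb window from 65180000 to 65285000 were taken, which holds the NEAT1 start at 65190269 and the MALAT1 start at 65265233, both on the plus strand. The window held 27 of 36125 peaks, 14 of 21555 for XPB and 13 of 14570 for XPD. The peaks come from chromatin immunoprecipitation and sequencing (ChIP-seq) in HT1080, an established human fibrosarcoma cell line, for which the labels give no treatment or genetic change. There was 1 XPB ChIP library, made with a rabbit polyclonal antibody, 1 XPD ChIP library, also made with a rabbit polyclonal antibody, and 1 library of unenriched input DNA. The 3 libraries shared 1 chromatin pool, so no spread between cultures was measured and no test between the antibodies was possible. The shared protocol text names an antibody to another protein (CSB), and the groups follow each sample's own antibody field.

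XPB and XPD are the helicase subunits of TFIIH, a general transcription factor that joins RNA polymerase II at promoters. XPB acts as a translocase that opens the promoter around the start site, and XPD is the helicase that nucleotide excision repair needs to unwind damaged DNA. NEAT1 is transcribed by RNA polymerase II into a short and a long form that share their 5′ end, and the long form is the scaffold of paraspeckles. MALAT1 is an abundant RNA of nuclear speckles, and its 3′ end is cut by RNase P, which releases a small tRNA-like RNA called mascRNA. Both genes are highly transcribed in many cell types.

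In outline, both helicases had their tallest peaks of the window at the NEAT1 start and 1.27 kb into MALAT1. Smaller peaks lay in the stretch before each gene. The NEAT1 body held a single low XPB peak, and no peak of either list lay at the 3′ end of either gene. Nor was there a peak in MALAT1 beyond the first 1565 bp of the gene. The tallest sites were at the same positions for XPB and XPD to within 7 bp.

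The start sequences are shown first because MALAT1 had a lower and a taller pair of peaks near its beginning. Windows of 300 bases (250 before and 50 after the start) were taken from RefSeq on the GRCh38.p14 build, where 1 of the 2 genes, MALAT1, had entries. It has 2 annotated starts 1307 bp apart on the plus strand. Capitals mark every match on either strand to a G-quadruplex motif (4 runs of at least 3 G with loops of 1 to 7 bases), to the TATA motif TATAAA, to the CAAT motif CCAAT or to the GC-box motif GGGCGG, so a match on the minus strand reads as its reverse complement.
MALAT1 first start, chr11:65497488-65497787: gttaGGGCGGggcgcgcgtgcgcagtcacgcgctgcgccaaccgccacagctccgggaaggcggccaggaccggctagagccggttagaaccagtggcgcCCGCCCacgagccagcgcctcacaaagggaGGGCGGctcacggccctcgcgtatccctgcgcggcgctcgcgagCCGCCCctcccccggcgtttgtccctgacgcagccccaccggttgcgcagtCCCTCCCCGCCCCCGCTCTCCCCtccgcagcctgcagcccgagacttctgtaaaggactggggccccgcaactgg
MALAT1 second start, chr11:65498795-65499094: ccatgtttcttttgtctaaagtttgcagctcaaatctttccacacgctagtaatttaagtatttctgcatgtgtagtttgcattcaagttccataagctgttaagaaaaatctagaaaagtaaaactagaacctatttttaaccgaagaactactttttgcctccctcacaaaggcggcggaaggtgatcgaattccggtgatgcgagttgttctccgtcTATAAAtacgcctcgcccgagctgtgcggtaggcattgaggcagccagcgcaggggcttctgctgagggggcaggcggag

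The starts differ in base composition. The first window has 73.7% G and C with 37 CG dinucleotides, and the second has 46.0% with 14, where the median of 35116 RefSeq start windows is 58.7% (quartiles 47.0 and 68.0) with 14. The first window holds 5 matches to GGGCGG, the GC box read by Sp1 family factors, which 45.0% of all windows hold at least once. It also holds 1 G-quadruplex motif, on the minus strand from 25 to 3 bases before the start, where it overlaps the GGGCGG match nearest to the start. Such a motif is found in 8778 of the 35116 windows. The second window holds neither, and has 1 TATAAA, the core of the TATA box, from 30 to 25 bases before the start; 11.5% of all windows hold that motif. CCAAT, found in 34.6% of windows, is in neither sequence. These are matches of letters only, and no binding is read from them.

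The first comparison was how each helicase was placed over NEAT1. At the start, XPB had a peak from 65189953 to 65191124 whose summit stood at 65190266, 3 bp before the annotated start. Its height was 53 fragments (95% Poisson interval 39.7 to 69.3), counted as overlapping fragments at the summit and not scaled to library depth. XPD had a peak from 65189953 to 65192194, with a summit at 65190273, 4 bp after the start, and a height of 66 fragments (51.0 to 84.0). The intervals began at the same base, and the XPD one ran further into the gene: it ended 1925 bp after the start, and the XPB one 855 bp after it. The XPD interval was 2242 bp wide, a width reached by 1.28% of XPD peaks, and the XPB interval was 1172 bp wide, reached by 16.8% of XPB peaks.

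By score, which is -10 times the log10 of the peak caller's p-value, the NEAT1 start was among the highest sites of both lists. It scored 1382.19 for XPB (rank 59) and 1471.07 for XPD (rank 35), on a scale that runs from 150 to a ceiling of 3100 in each list. By height it ranked 68 for XPB, in the top 0.315%, and 44 for XPD, in the top 0.302%.

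Before the NEAT1 start, peak intervals of both lists followed one another over about 4 kb with only short gaps. The XPB list had 3 peaks there, with summits 4077, 2771 and 1511 bp before the start and heights of 18, 20 and 14 fragments. The XPD list had 3 peaks over the same intervals, with summits 3479, 2654 and 1482 bp before the start and heights of 19, 17 and 20 fragments. The gaps between successive intervals, the start peak included, were 143, 234 and 205 bp for XPB and 104, 228 and 80 bp for XPD. They are shorter than the selected DNA of 400 to 700 bp, so continuous binding is not read from them. These upstream peaks were low beside the start peak but scored well: 739.03, 403.55 and 534.07 for XPB, and 697.60, 371.84 and 411.82 for XPD, against list medians of 189.4 and 185.1. The farthest of them, from 65185874 to 65187135 for XPB and from 65185857 to 65187226 for XPD, was in the top 1.29% of XPB and 1.15% of XPD scores with heights of only 18 and 19 fragments. A further XPD peak, from 65184008 to 65185154, had 12 fragments at a summit 5833 bp before the start, scored 190.15 and had no XPB partner.

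Within NEAT1 the picture was sparse. The gene is 22743 bp long in RefSeq (GRCh38), and the body was taken as the part from 1 kb after the start to 1 kb before the end. XPB had 1 summit in it, 13369 bp after the start, in a peak from 65202987 to 65203974 with 9 fragments (4.12 to 17.1) and a score of 184.58. XPD had no summit in the body. The start summit of XPB was 5.89 times as tall as the body summit (counting interval 2.88 to 13.6), and the body summit ranked only 16158 by height among the 21555 of the list. Of the 2001 bp around the start, peaks covered 1651 bp for XPB and 1921 bp for XPD. In the body they covered 4.76% for XPB and 4.46% for XPD, and in XPD all of it was the tail of the start peak. Around the 3′ end of the gene, within 1 kb on either side, they covered 0 bp in both lists.

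The peak-free stretches show the same contrast. After the start peak, XPD had no peak for 30.1 kb, which spans the rest of NEAT1, and XPB had gaps of 11.9 and 18.5 kb on the sides of its body peak. The lists give only sites that scored at least 150, so a site without a peak is below that level and not shown to be unbound.

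**Figure D1:**
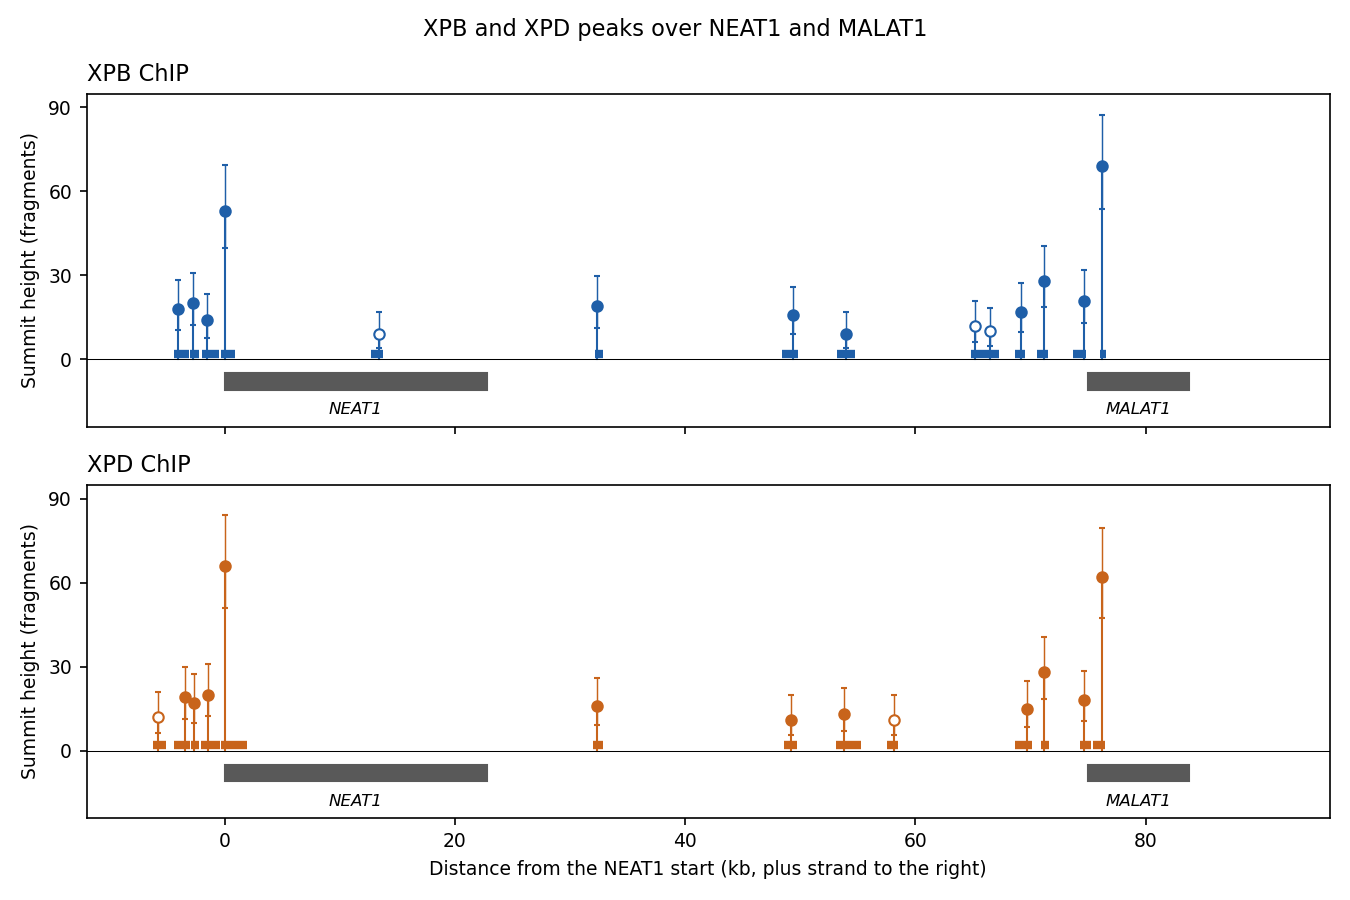
Peaks of the XPB list (upper panel) and the XPD list (lower panel) by distance from the NEAT1 start in kb; points give the summit height in fragments with its 95% Poisson interval, thick bars the peak intervals, and open points peaks with no overlapping peak in the other list. Grey boxes are the genes drawn with their RefSeq lengths. The 4 tallest points stand at the NEAT1 start (53 for XPB, 66 for XPD) and 1.27 kb into MALAT1 (69 for XPB, 62 for XPD). No point lies over the 3′ ends of the genes.

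The second comparison was the same for MALAT1, 8779 bp long in RefSeq. Here the tallest summits were not at the hg19 start itself. XPB had its tallest summit of the window at 65266505, 1272 bp after the start, with 69 fragments (53.7 to 87.3). XPD had its MALAT1 summit at 65266506, 1273 bp after the start, with 62 fragments (47.5 to 79.5). In RefSeq the second MALAT1 start lies 1307 bp after the first, the one with the TATAAA printed above. These distances were each taken within a single build and no position was carried over between builds; the hg19 start and the first RefSeq start need not be the same base.

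The intervals at this site differed in shape. The XPB peak, from 65266329 to 65266798, was 470 bp wide, and only 6.37% of XPB peaks were as narrow or narrower. The XPD peak, from 65265671 to 65266715, was 1045 bp wide, with 62.9% of XPD peaks as narrow or narrower, and it reached back to 438 bp after the start. The XPB peak scored 1038.77 (rank 115) and the XPD peak 679.63 (rank 177). By height they ranked 46 and 51.

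At the hg19 start of MALAT1 there was a second, lower pair of peaks. XPB had 21 fragments (13.0 to 32.1) at a summit 336 bp before the start, in a peak from 65263993 to 65265063 that ended 170 bp short of the start. XPD had 18 fragments (10.7 to 28.4) at a summit 356 bp before the start, in a peak from 65264545 to 65265512 that crossed the start by 279 bp. Their scores, 272.36 and 177.41, were far below those of the taller pair. The peak-free gap between the lower and the taller peak was 1.26 kb for XPB and only 158 bp for XPD.

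The remainder of MALAT1 held no peak. The last peak ended 1565 bp after the start for XPB and 1482 bp after it for XPD, and the next peak of either list lay outside the window, 60.3 kb further for XPB and 56.1 kb for XPD. From 2 kb after the start to 1 kb after the gene's end, a stretch of 7.78 kb chosen after the data were seen, coverage was 0 in both lists. This stretch includes the 3′ end, where RefSeq places the 58 bp mascRNA gene. RefSeq also lists the antisense gene TALAM1, which overlaps MALAT1 and is 8121 bp long, nearly the length of MALAT1. A ChIP peak has no strand, so peaks near the start could not be assigned to MALAT1 or to a transcript running the other way.

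By the fixed zones (within 1 kb of a start, body, within 1 kb of an end), the tall MALAT1 pair fell in the body, because it lies just beyond 1 kb from the start. Each list thus had 1 summit in the MALAT1 start zone, 1 in its body and 0 at its 3′ end. For NEAT1 the counts were 1, 1 and 0 for XPB and 1, 0 and 0 for XPD. With zones of 2 kb the tall pair joined the start zone of MALAT1, and the MALAT1 body count was 0 in both lists.

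**Figure D2:**
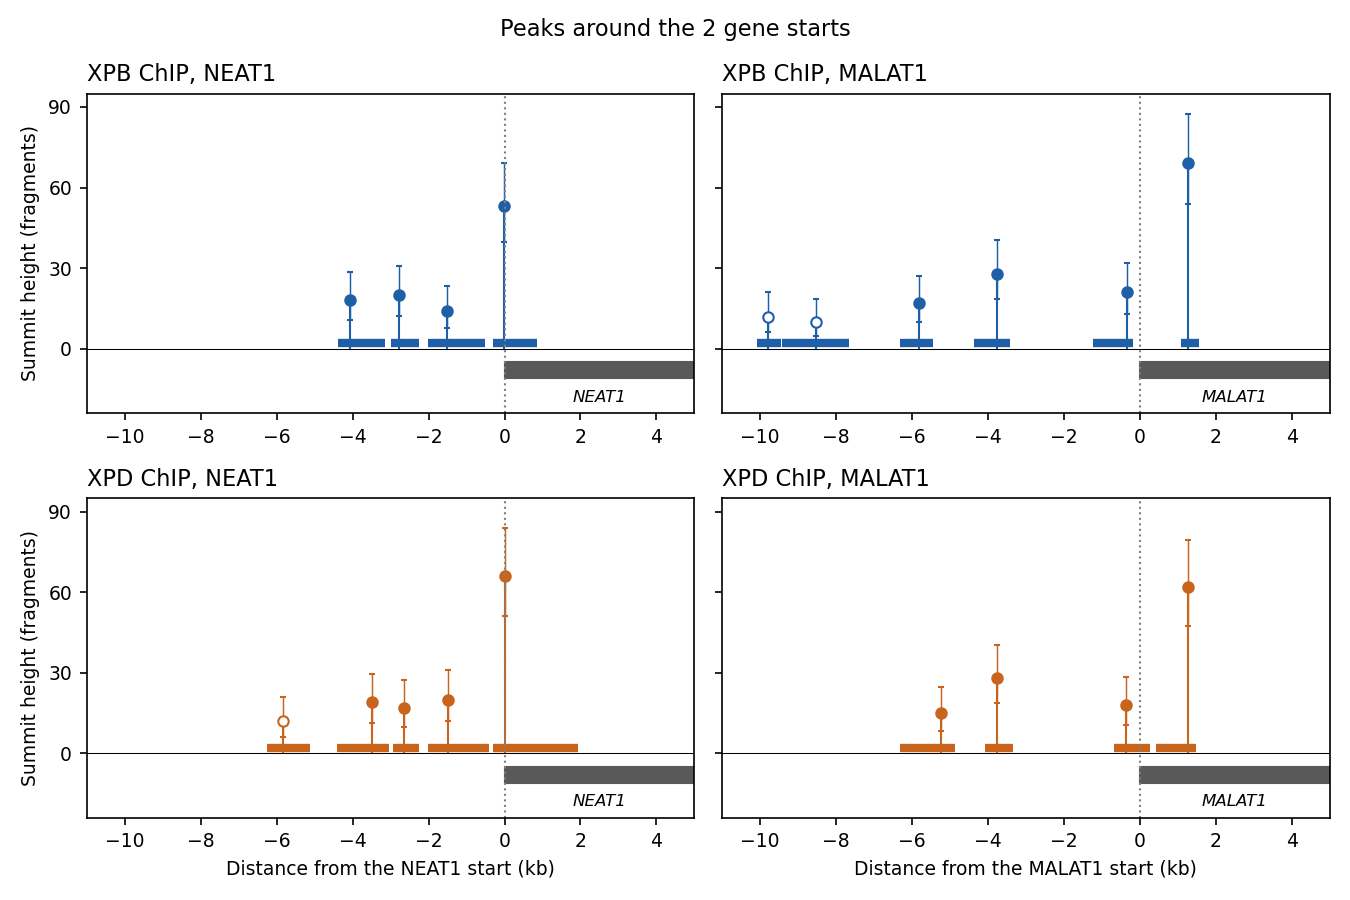
The same peaks from 10 kb before to 5 kb after each gene's hg19 start, with NEAT1 on the left, MALAT1 on the right, XPB above and XPD below; points are summit heights in fragments with 95% Poisson intervals and dotted lines mark the starts. The NEAT1 summits stand on the start (3 bp before it for XPB, 4 bp after it for XPD), and the tall MALAT1 summits stand 1272 and 1273 bp after it with a lower pair just before it.

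The main sites of the genes were close in height. The NEAT1 start summit was 0.768 times the MALAT1 one for XPB (counting interval 0.527 to 1.11) and 1.06 times for XPD (0.741 to 1.53), so the order of the genes was not resolved in either list. Both stood above the rest of the window. For XPB the other 12 summits ran from 9 to 28 fragments with a median of 16.5, and the NEAT1 and MALAT1 sites were 1.89 (1.18 to 3.11) and 2.46 (1.57 to 3.97) times the tallest of these. For XPD the other 11 ran from 11 to 28 with a median of 16, and the 2 sites were 2.36 (1.49 to 3.81) and 2.21 (1.4 to 3.59) times the tallest. The comparison uses counting error only and the sites were picked as the tallest.

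Between the genes lay a further set of peaks. RefSeq (GRCh38) lists the pseudogene FAUP4 and the long non-coding RNA genes ENEMAL and LINC02736 in this interval, and the peaks were not assigned to them. In the 50.2 kb from 1 kb after NEAT1 to 1 kb before the MALAT1 start, a stretch chosen after the data were seen, XPB had 7 summits and XPD 6. Peaks covered 16.1% of it for XPB and 14.2% for XPD, more of its length than of the NEAT1 body.

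The tallest of these was a site with its summit 3749 bp before the MALAT1 start for XPB and 3771 bp before it for XPD. XPB had 28 fragments there (18.6 to 40.5), in a peak from 65260872 to 65261813, and XPD had 28 fragments (18.6 to 40.5), in a peak from 65261160 to 65261902. This height was in the top 1.49% of XPB and the top 2.03% of XPD summits, while the scores of 265.54 and 259.99 were only in the top 19.5% and 17.6%.

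A broader pair of peaks lay about 54 kb after the NEAT1 start, from 65243467 to 65245011 for XPB and from 65243397 to 65245537 for XPD. The heights were low, 9 and 13 fragments, but the scores were 372.32 and 371.70. The XPD interval was 2141 bp wide, a width reached by 1.61% of XPD peaks, and the XPB one 1545 bp, reached by 4.56% of XPB peaks. Score and height thus ordered these sites differently.

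The other intergenic pairs were modest in height. A pair about 32 kb after the NEAT1 start had 19 fragments for XPB, in a peak from 65222434 to 65223145, and 16 for XPD, in a peak from 65222275 to 65223087, with scores of 379.64 and 168.33. A pair near 49 kb had 16 fragments for XPB, from 65238713 to 65240057, and 11 for XPD, from 65238872 to 65239943, with scores of 343.73 and 159.27. In both of these pairs the XPD score was near the floor of 150 while the XPB score was in the top 7.75% and 10.1% of its list. A pair between 5 and 6 kb before the MALAT1 start had 17 fragments for XPB, from 65258923 to 65259801, and 15 for XPD, from 65258930 to 65260378, with scores of 415.00 and 443.57.

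Peaks of a single list were the exception in the window. XPB alone had adjoining peaks from 65255143 to 65255799 (12 fragments, score 152.54) and from 65255812 to 65257564 (10 fragments, score 273.18), 12 bp apart, with summits 9782 and 8523 bp before the MALAT1 start. XPD alone had a peak from 65247831 to 65248727 (11 fragments, score 226.42). With the XPB peak in the NEAT1 body and the XPD peak upstream of NEAT1, these were 3 XPB and 2 XPD peaks without a partner.

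The next comparison was how far the helicases coincided. Of the 14 XPB peaks, 11 (78.6%, exact binomial interval 49.2 to 95.3) overlapped an XPD peak by at least 1 bp, against 26.6% of the whole XPB list. XPB peaks were met by 11 of the 13 XPD peaks (84.6%, 54.6 to 98.1), against 38.7% of the whole XPD list. In the 2.5 Mb on either side of the window the shares were 40.8% and 48.0%. The window's peaks also scored high, and high scores go with sharing in both lists. Scores of at least 300 were reached by 9 of the 14 XPB peaks and 7 of the 13 XPD peaks, against 14.3% and 11.9% of the lists. All 9 and all 7 had a partner, where 73.2% of XPB and 87.1% of XPD peaks at such scores did. Below 300, 2 of 5 XPB and 4 of 6 XPD peaks had one, where 18.8% of XPB and 32.2% of XPD peaks at such scores did. The window thus had higher scores. On each side of 300 its share was also above that of the list, but from counts of at most 9 peaks. Scores were not matched within each side, so no sharing beyond that expected from score is read from these counts. The 7 of 7 for XPD is near its background of 87.1%. An overlap of 1 bp is also met more easily where peaks are dense and wide. Peaks covered 14.3% of the window for XPB and 15.4% for XPD, against 0.643% and 0.488% of the span of the lists. Their median widths were 1029.5 and 1072 bp, against 833 and 937 bp in the lists. The parts of score, density and width in the higher share were not tested.

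Summits lay closest together at the tall sites. The 11 pairs had a median summit distance of 32 bp (from 1 to 598), against 97.5 bp over 5536 pairs in all, and 6 of the 11 were within 100 bp, against 50.7% of all pairs, a share near the background. The summits were 7 bp apart at the NEAT1 start and 1 bp apart at the tall MALAT1 site. Among the 57 pairs of the genome with at least 50 fragments in both lists, the median distance was 6 bp and 59.6% were within 10 bp, so such closeness was common at this height. The largest distances, 598 and 568 bp, were at the pairs about 4 kb before NEAT1 and 5 to 6 kb before MALAT1.

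The ratio of heights was close to that of the lists as a whole. Across all pairs the median log2 ratio of XPB to XPD height was -0.11 (quartiles -0.38 and 0.19), and each ratio was read relative to that median because the depth of the libraries is unknown. At the NEAT1 start the relative log2 ratio was -0.21 (counting interval -0.76 to 0.33). At the tall MALAT1 site it was 0.26 (-0.25 to 0.78). The 57 pairs with at least 50 fragments in both lists had a median relative log2 ratio of 0.19 (from -0.58 to 0.99). The MALAT1 value was thus close to that of pairs of like height and the NEAT1 value lower, with 0.19 inside both counting intervals. The difference between the genes, NEAT1 over MALAT1, was -0.47 on the log2 scale (exact conditional interval -1.23 to 0.29), which includes 0 and also differences of 2-fold. None of the 11 pairs departed from the median by more than 2-fold, against 2.01% of all pairs. The 11 values ran from -0.42 to 0.65, with 8 above 0 and 3 below, and every interval included 0. Heights of the helicases were ordered alike over the 11 pairs (Spearman's rho 0.73, a description across sites of the same libraries), less so over the 9 pairs without the tall sites (0.52), against 0.59 over all pairs.

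**Figure D3:**
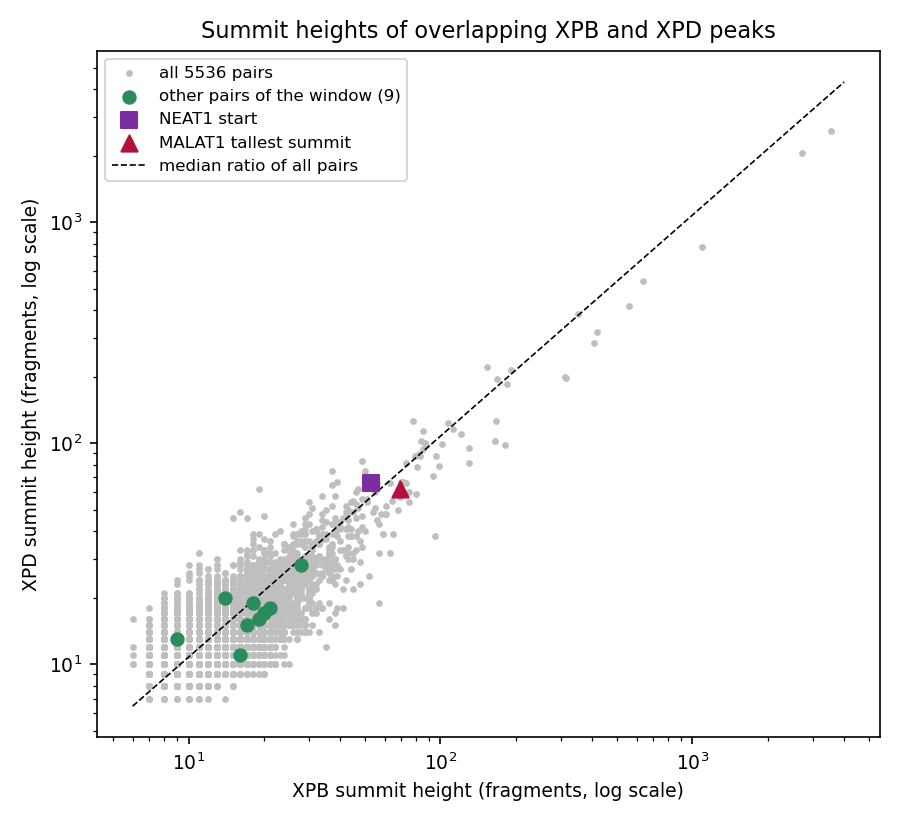
Summit heights of overlapping XPB (x axis) and XPD (y axis) peaks in fragments, both on log scales; grey points are all 5536 pairs, coloured points the 11 pairs of the window, and the dashed line the median ratio. NEAT1 (53 and 66) and the tall MALAT1 site (69 and 62) lie near the line, on opposite sides, among the upper part of the cloud.

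**Figure D4:**
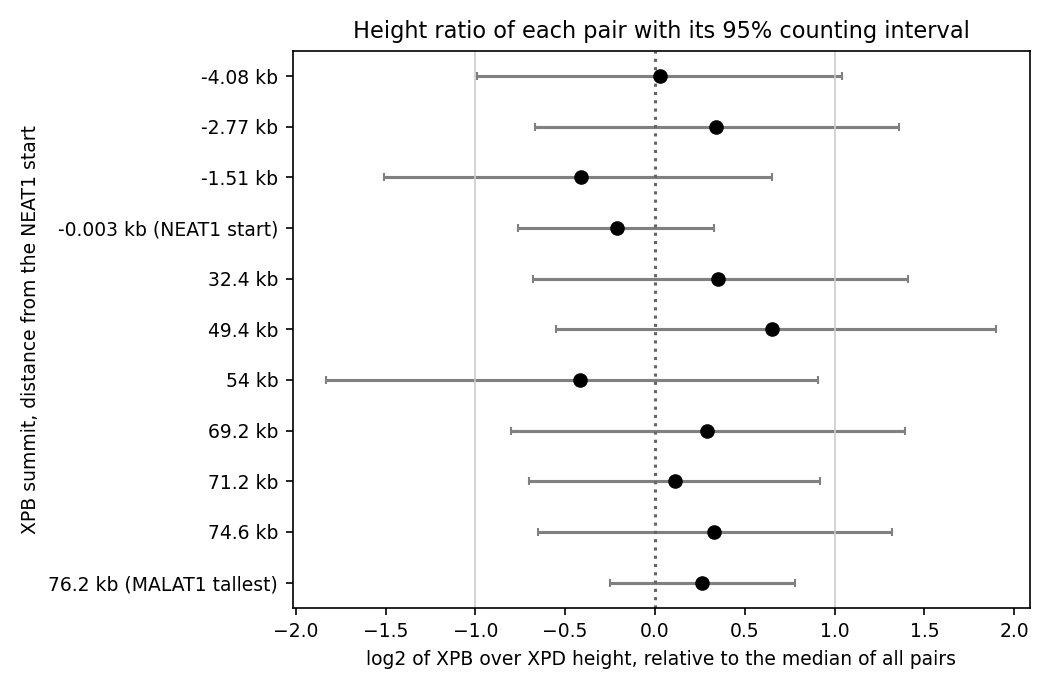
The log2 ratio of XPB to XPD height of each of the 11 pairs relative to the median of all pairs, with 95% counting intervals, ordered by distance of the XPB summit from the NEAT1 start in kb; vertical lines at -1 and 1 mark a 2-fold departure. All intervals cross 0, and the narrowest are those of the NEAT1 start (-0.76 to 0.33) and the tall MALAT1 site (-0.25 to 0.78).

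Last, the window was set against the rest of the genome. It had 13.3 XPB and 12.4 XPD peaks per 100 kb. In the 5 Mb that flank it the densities were 3.04 and 2.54, and over the span of the lists 0.723 and 0.489. The nearest peak before its first one was 14.6 kb away for XPB and 32.8 kb for XPD. The window thus held 4.39 times the flanking density for XPB and 4.87 times for XPD. When the chromosomes were divided into stretches of the window's length, 25 of 28424 stretches (0.0880%) held at least 14 XPB peaks, and 15 of 28415 (0.0528%) held at least 13 XPD peaks. These stretches lay on a fixed grid that can split a cluster of peaks, while the window was placed around the 2 genes. The shares are therefore not a measure of how rare such a window is. Peaks covered 14.3% of the window for XPB and 15.4% for XPD, against 0.643% and 0.488% of the span of the lists. They were also taller than the rest: the median height was 17.5 fragments for XPB and 17 for XPD in the window, 11 and 12 in the flanks, and 11 and 13 in the lists. Their median scores were 376.0 and 371.7, against 202.0 and 195.3 in the flanks. The window was chosen for its genes with results of these lists already known, and the input library was not compared here, so how much of this density follows the read background was not tested.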

How the data were processed

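ChIP-seq of XPB and XPD in HT1080 cells was analysed from the authors' deposited peak lists, 1 library per antibody; the input library was not analysed here. Per the submitters' processing notes, reads were aligned to hg19 with Bowtie 0.12.7 and peaks called with MACS 1.4; use of the input as control and other settings are not given in the sources used here. Size selection kept DNA of 400 to 700 bp, and ChIP libraries had 12 amplification cycles, per the labels' protocols. The deposited score was read, from the usual MACS layout, as -10 times log10 of the p-value, and the deposited summit signal as fragment pileup height, not scaled to depth, which is unknown. Starts were made 1-based. The gene starts are hg19 positions given with the window; gene lengths and start sequences are RefSeq GRCh38.p14, and no position was converted. All peaks of the window are named; members and zones were chosen with earlier results of these data known. Pairs are mutually largest overlaps of at least 1 bp. Intervals (95%: exact Poisson, Clopper-Pearson, conditional) cover counting error only, and amplified copies of a molecule are not independent. No p-value is given. Overlap functions were tested on simulated lists. Alternatives covered score threshold, overlap rule, zone rule and zone width. Python 3.11.15, numpy 2.4.6, pandas 2.3.3, scipy 1.17.1 and matplotlib 3.10.9 were used.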

Additional observations from a re-analysis of the deposited data

How the results depend on the processing

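Of 62 alternatives, 48 stayed close to the reported value (counts and ranks within 1.5 times, height ratios within their counting interval), 14 moved and 0 reversed. For the height ratios only the subtracted median was changed. That shift was the same for every pair and smaller than the counting intervals, so these alternatives could not move. Counts and ranks have no sign to reverse. The tally is therefore no measure of how robust the results are. At scores of at least 300 the window held 9 XPB and 7 XPD peaks. Counting any overlap with a zone gave 2 XPB and 2 XPD peaks at the NEAT1 start, 2 XPD peaks at the MALAT1 start and 1 XPD peak in the NEAT1 body. Zones of 2 kb gave 2 XPB and 2 XPD peaks at each start and 0 in the MALAT1 body, since the tall MALAT1 summits lie between 1 and 2 kb from the start. By score in place of height, the tall MALAT1 site ranked 115 for XPB and 177 for XPD; the cause was not tested. The counts of 0 at both 3′ ends also stayed, but no peak lay near enough to either end for these zone alternatives to change them. The number of shared peaks was 9 in both lists with a reciprocal overlap of 50% or with summits within 250 bp. With both lists limited to scores of 200 or more, it was 8 of 12 XPB and 8 of 9 XPD peaks. Shares of the whole lists under these rules are not given here. These counts therefore do not show whether the window's share stays above that of the lists. No paired analysis was possible because each antibody has 1 library. Unknown depth and the score floor of 150 limit what a missing peak can show.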
